A study of Homo sapiens with 5 samples.

Results

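The genes described here are 10 genes of the epithelial-mesenchymal transition (EMT), in which epithelial cells loosen their junctions and take on a migratory, mesenchymal state. They are the transcription factors ZEB1, ZEB2, SNAI1, SNAI2 and TWIST1, the epithelial cadherin gene CDH1, and the mesenchymal markers VIM, CDH2, FN1 and CD44. The genes were taken by name, and every called ChIP-seq peak that touched the gene body or the 50 kb on either side of it (the locus) was counted, on genome build hg19 with GENCODE positions. They are 10 of 20149 protein-coding genes, and their loci held 46 of the 29781 peaks in the 4 peak lists of the series. The lists come from chromatin immunoprecipitation with antibodies against Nrf2 and HIF1α in BEAS-2B cells, a virally immortalised line of human bronchial epithelium. Cells were starved of serum overnight and then left untreated (control) or given 1 μM inorganic arsenic (iAs) for 6 h, and 1 library was made per antibody and condition. The input sample, the last of the 5 samples, was not analysed here. With 1 library per antibody and condition no test between conditions was made, and the effect of iAs cannot be told apart from a difference between libraries, their depth or their peak calling. The lists give positions without heights, and the read depth is unknown.

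Nrf2 is the main regulator of the antioxidant response, and with small Maf proteins it binds antioxidant response elements (ARE), whose sequence overlaps the motif of AP-1 factors. HIF1α pairs with ARNT and binds hypoxia response elements, and in EMT hypoxia signalling is known to act on SNAI1, TWIST1 and ZEB genes. The ZEB, Snail and Twist factors repress CDH1, while N-cadherin, vimentin, fibronectin and the hyaluronan receptor CD44 rise as cells become mesenchymal.

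The sequences under the peaks that the results turn on are printed below, to show the letters that the motif counts refer to. Each is read 5′ to 3′ from the plus strand of hg19. Most show the peak centre with 100 bp to its left and right, and the short sites show a motif with its flanks. The CDH1 HIF1α control sequence is the whole 200-bp peak. The CD44 +27.7 kb sequence is centred on the HIF1α peak with iAs. In the Nrf2 set, capitals mark TGACTCAGC (the Nrf2 core), TGACTCA (the AP-1-like heptamer) or TGACNNNGC (the ARE core) on either strand, and distances are from the transcription start site (TSS) of the canonical transcript, negative upstream. The ZEB1 peak lies outside the 50 kb and is shown as the nearest Nrf2 peak to that gene.
SNAI1 Nrf2 +47.1 kb, chr20:48646524-48646724: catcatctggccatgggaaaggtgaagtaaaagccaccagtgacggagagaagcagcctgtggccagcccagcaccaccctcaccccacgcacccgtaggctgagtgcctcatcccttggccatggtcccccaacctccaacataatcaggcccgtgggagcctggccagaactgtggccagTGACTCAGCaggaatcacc
SNAI1 Nrf2 +45.0 kb, chr20:48644455-48644655: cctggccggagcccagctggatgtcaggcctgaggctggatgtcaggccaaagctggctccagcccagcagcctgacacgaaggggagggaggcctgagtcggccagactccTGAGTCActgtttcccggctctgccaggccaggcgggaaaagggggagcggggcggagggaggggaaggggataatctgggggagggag
ZEB2 Nrf2 +162 kb, chr2:145115678-145115878: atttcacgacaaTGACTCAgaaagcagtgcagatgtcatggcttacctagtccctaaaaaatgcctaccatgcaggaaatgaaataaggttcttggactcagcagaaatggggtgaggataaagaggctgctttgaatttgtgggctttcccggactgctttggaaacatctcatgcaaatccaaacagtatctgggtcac
CDH2 Nrf2 -27.1 kb, chr18:25784120-25784320: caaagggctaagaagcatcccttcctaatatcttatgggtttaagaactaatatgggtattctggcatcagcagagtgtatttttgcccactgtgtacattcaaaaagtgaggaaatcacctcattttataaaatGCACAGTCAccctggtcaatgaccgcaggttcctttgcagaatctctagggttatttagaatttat
CD44 Nrf2 and HIF1α +27.7 kb, chr11:35188276-35188476: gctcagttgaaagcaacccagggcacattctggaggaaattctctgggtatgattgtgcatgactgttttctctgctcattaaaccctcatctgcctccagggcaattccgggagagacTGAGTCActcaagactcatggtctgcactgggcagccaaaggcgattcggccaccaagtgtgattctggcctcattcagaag
ZEB1 Nrf2 -76.1 kb, chr10:31531906-31532106: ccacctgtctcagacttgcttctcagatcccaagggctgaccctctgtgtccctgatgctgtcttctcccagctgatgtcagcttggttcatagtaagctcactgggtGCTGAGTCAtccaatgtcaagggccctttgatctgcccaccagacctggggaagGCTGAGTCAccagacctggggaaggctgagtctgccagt
CDH1 Nrf2 site in intron 13, chr16:68857538-68857566: agctggcaagTGACTCAGCctttgactta
CDH2 Nrf2 site in intron 2, chr18:25695266-25695292: aagtggggcaTGAGTCAtactgtttta
VIM Nrf2 site at the TSS, chr10:17270522-17270550: cggTGAGTCAccgccggTGACTAAGCgac
CD44 Nrf2 site at the TSS, chr11:35160597-35160625: tctgcgggctGCTTAGTCAcagcccccct

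The HIF1α set shows peaks of iAs-treated cells at 4 TSSs and the pair of peaks seen only in control cells. Capitals mark the HIF1 core, ACGTG or GCGTG, on either strand.
ZEB1 HIF1α +0.268 kb, chr10:31608313-31608513: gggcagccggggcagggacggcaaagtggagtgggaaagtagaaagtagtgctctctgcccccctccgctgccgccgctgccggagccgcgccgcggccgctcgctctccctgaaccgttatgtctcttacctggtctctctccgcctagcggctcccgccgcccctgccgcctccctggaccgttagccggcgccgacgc
SNAI1 HIF1α -0.396 kb, chr20:48599021-48599221: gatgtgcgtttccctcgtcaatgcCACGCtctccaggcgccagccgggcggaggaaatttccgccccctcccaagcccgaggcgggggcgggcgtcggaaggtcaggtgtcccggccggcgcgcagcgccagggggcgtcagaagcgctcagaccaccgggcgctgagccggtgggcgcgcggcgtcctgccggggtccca
CDH2 HIF1α -0.513 kb, chr18:25757507-25757707: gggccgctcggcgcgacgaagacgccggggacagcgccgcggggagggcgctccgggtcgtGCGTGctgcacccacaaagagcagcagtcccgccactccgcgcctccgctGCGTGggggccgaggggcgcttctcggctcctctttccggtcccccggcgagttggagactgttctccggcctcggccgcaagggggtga
CD44 HIF1α +0.273 kb, chr11:35160891-35161091: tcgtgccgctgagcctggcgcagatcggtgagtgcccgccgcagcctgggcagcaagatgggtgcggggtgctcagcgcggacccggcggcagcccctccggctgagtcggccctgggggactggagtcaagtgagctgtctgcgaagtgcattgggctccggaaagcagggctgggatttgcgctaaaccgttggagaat
CDH1 HIF1α control -4.82 kb, chr16:68766274-68766473: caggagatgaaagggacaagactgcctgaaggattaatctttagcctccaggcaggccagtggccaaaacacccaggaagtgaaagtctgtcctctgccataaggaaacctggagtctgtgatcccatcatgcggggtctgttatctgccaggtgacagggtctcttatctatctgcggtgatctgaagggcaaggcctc
FN1 HIF1α control -29.4 kb, chr2:216330046-216330246: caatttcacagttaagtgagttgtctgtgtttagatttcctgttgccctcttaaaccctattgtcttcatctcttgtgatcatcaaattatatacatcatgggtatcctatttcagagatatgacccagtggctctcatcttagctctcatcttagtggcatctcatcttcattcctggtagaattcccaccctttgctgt

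In control cells the 10 loci held 5 Nrf2 peaks and 6 HIF1α peaks, and in iAs-treated cells they held 17 and 18. The whole lists held 3204 and 7743 peaks for Nrf2 and 6008 and 12826 for HIF1α, so the lists themselves were longer with iAs. Of the 46 peaks, 34 had the canonical TSS of the EMT gene as their nearest protein-coding TSS, and 12 lay nearer to GTDC1, RNF114, TRDMT1, TANGO6 or ATIC, which share the loci. A median locus of the 10 genes spanned 195 kb, against 127 kb over all genes.

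A Nrf2 peak lay in the locus of 3 of the 10 genes in control cells (ZEB2, SNAI1 and CDH2) and of 6 with iAs (the same genes, VIM, CDH1 and CD44). Over all protein-coding genes the shares were 20.0% and 35.0%. For HIF1α the genes were 4 in control cells (VIM, CDH1, FN1 and CD44), where 45.5% of all genes had a peak, and 9 with iAs, all but SNAI2, where 68.6% did. With the iAs list shortened to the number of the control list by keeping its widest peaks, HIF1α peaks lay at 5 genes with iAs against 4 in control cells, and their number was 7 against 6. The share of all genes with a peak in the locus was not counted for the shortened list, so the 5 genes have no such value beside them. Peaks called with iAs and overlapping no control peak of the same factor (iAs-only peaks) lay at 6 genes for Nrf2, against 25.4% of all genes, and at 8 for HIF1α, against 59.7%. The reverse, a peak of control cells alone, was found for Nrf2 at 0 of the 10 genes (1.55% of all genes) and for HIF1α at CDH1 and FN1 (19.9%). SNAI2 had no peak in any of the 4 lists, and neither did 24.3% of all genes. The counts over 10 genes are small and are given beside the genome-wide shares with no test.

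**Figure D1:**
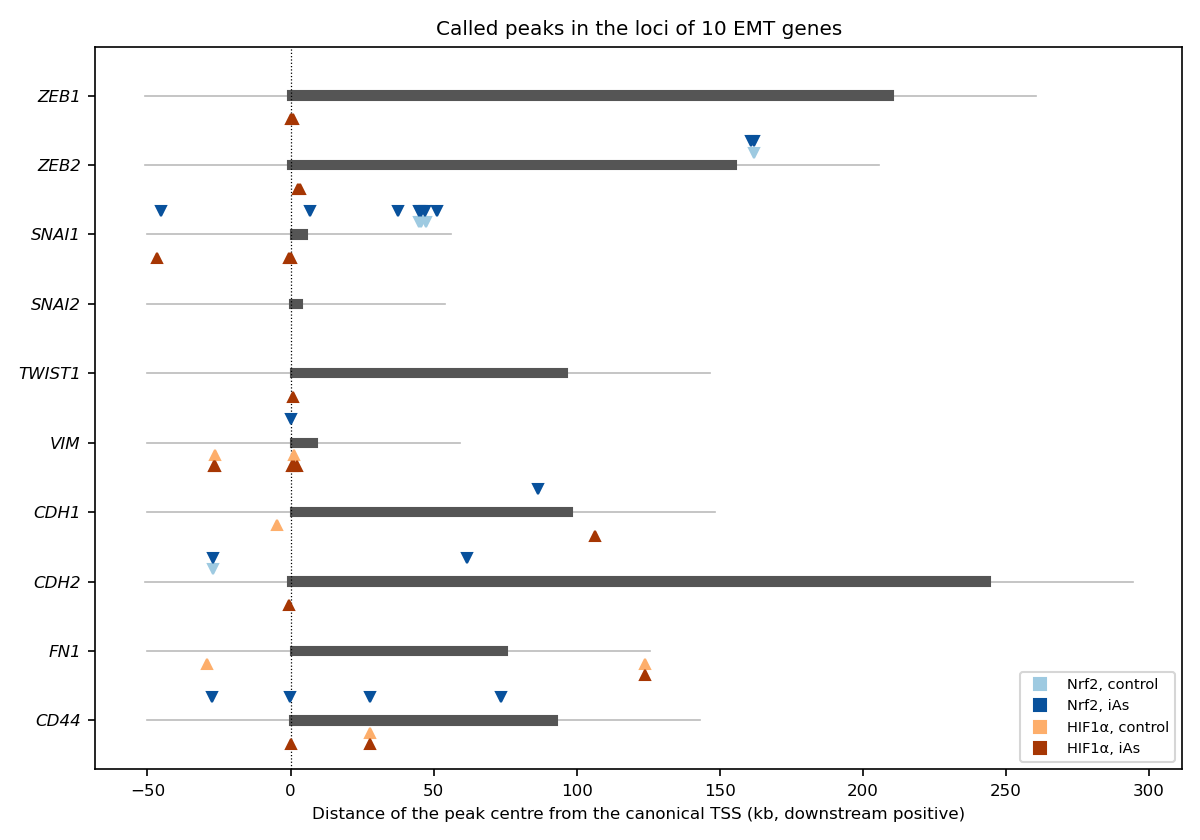
Peak centres in the loci of the 10 genes by distance from the canonical TSS in kb, with the gene body as a dark bar and the 50 kb flanks as a grey line; Nrf2 peaks point down above the line and HIF1α peaks point up below it, and markers of close peaks overlap. HIF1α peaks of iAs-treated cells sit at the TSS of 7 genes, most Nrf2 peaks lie away from it, and SNAI2 has none.

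Most HIF1α peaks of iAs-treated cells lay at a TSS, and most Nrf2 peaks did not. With iAs, HIF1α had a peak centre within 3 kb of the canonical TSS at 7 of the 10 genes, ZEB1, ZEB2, SNAI1, TWIST1, VIM, CDH2 and CD44, whereas in control cells it had such a peak at VIM alone. The shares over all genes were 44.3% and 17.7%. At all 7 genes at least 1 of these peaks was iAs-only, which held for 33.0% of all genes. Nrf2 had a peak at the TSS of VIM and CD44 with iAs, where 6.22% of all genes did, and at none of the 10 in control cells, where 2.85% did. HIF1α peaks of iAs-treated cells sat closer to a TSS over the whole list too, with 80.4% (95% Wilson interval 79.7 to 81.1, counting error only) within 3 kb of a canonical TSS against 52.6% (51.4 to 53.9) in control cells, and the part of this list-wide difference in the 7 genes was not tested. When the iAs list was shortened to its widest peaks, as many as the control list holds, a HIF1α peak at the TSS was left at ZEB1 and VIM, 2 of the 10 genes, against 27.1% of all genes.

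**Figure D2:**
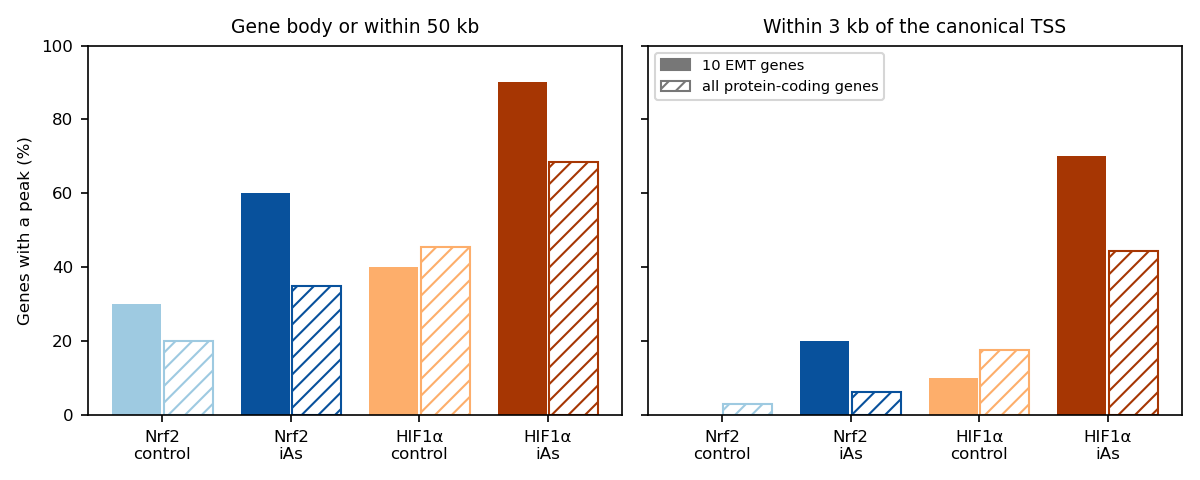
Percent of genes with a peak in each list, for the 10 EMT genes (filled bars) and all protein-coding genes (hatched bars), counted in the gene body or within 50 kb on the left and within 3 kb of the canonical TSS on the right. The EMT genes reach 9 of 10 in the locus and 7 of 10 at the TSS for HIF1α with iAs.

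ZEB1, a repressor of epithelial genes, had no Nrf2 peak and no HIF1α peak of control cells in its 311-kb locus. With iAs it had 2 HIF1α peaks, both in intron 1 of the canonical transcript and both absent from the control list. The one at chr10:31608216-31608610 was 395 bp wide and centred 0.268 kb downstream of the TSS. The other, at chr10:31609050-31609290, was 241 bp wide and centred 1.02 kb downstream, 0.206 kb from the start of ZEB1-AS1, a long non-coding RNA gene read from the opposite strand. A further 988 genes had the same 4 peak counts as ZEB1. Outside the locus, 76.1 kb upstream of the TSS, Nrf2 had an iAs-only peak of 400 bp at chr10:31531807-31532206, with ZEB1 as its nearest protein-coding TSS. The window around its centre held the Nrf2 core 2 times, as printed above. The next Nrf2 peak upstream was called in both conditions 190 kb from the TSS, nearer to ZNF438. Its interval also held the Nrf2 core in each condition.

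ZEB2, a close relative of ZEB1 with the same repressor role, had peaks of both factors. HIF1α with iAs had 2 peaks, at chr2:145274822-145275077 (256 bp, 2.74 kb downstream, in the 5′-UTR part of exon 2) and at chr2:145274148-145274467 (320 bp, 3.38 kb downstream, in intron 2), and neither overlapped a control peak. These lay 37 and 21 bp from starts of other annotated ZEB2 transcripts. Nrf2 peaks were found past the 3′ end of the gene, with GTDC1 as the nearest protein-coding TSS. The peak of control cells there was 189 bp wide, and the overlapping peak of iAs-treated cells was 304 bp wide. An iAs-only peak of 424 bp lay beside it, 161 kb downstream of the ZEB2 TSS.

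SNAI1, which encodes Snail, had the most peaks of the 10 genes, in a locus of only 106 kb. Nrf2 had 3 peaks there in control cells and 7 with iAs, and HIF1α had 0 and 3. No other protein-coding gene had the same 4 counts. The Nrf2 peaks of control cells formed a group downstream of the gene, at chr20:48644361-48644643 (283 bp), chr20:48644995-48645232 (238 bp) and chr20:48646233-48647526 (1294 bp), centred 45.0, 45.6 and 47.4 kb from the TSS. All 3 overlapped a wider peak of iAs-treated cells, of 485, 550 and 2120 bp. The 1294-bp peak ranked 19 of 3204 by width in the control list, and the 2120-bp peak, at chr20:48645565-48647684, ranked 31 of 7743 in the iAs list. The wide peaks held the Nrf2 core at chr20:48646706-48646714, 86 bp from the centre of the iAs peak and 169 bp from the centre of the control peak, so that in control cells it fell outside the 100 bp searched. SNAI1 had the nearest protein-coding TSS, while the long non-coding RNA gene TRERNA1 started 11.4 kb from the 2120-bp peak. The other 4 Nrf2 peaks were iAs-only and 191 to 415 bp wide. Of these, those at 6.70, 37.4 and 51.1 kb downstream had SNAI1 as the nearest protein-coding TSS, and that at 45.3 kb upstream lay in RNF114. The peak at 51.1 kb was centred 7.44 kb from the start of TRERNA1.

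The 3 HIF1α peaks at SNAI1 were all iAs-only. The peak at chr20:48598946-48599296 was 351 bp wide and centred 0.396 kb upstream of the TSS. The peak at chr20:48599509-48599696 lay over the coding part of exon 1, and with 188 bp it was among the narrowest of its list (percentile 3.86). The widest, of 685 bp at chr20:48552668-48553352, lay 46.5 kb upstream at the TSS of the neighbour RNF114. It was the only one of the 46 peaks whose window held AAGATGGCG, the letters of a YY1-like motif, found in 1.54% of all HIF1α windows with iAs.

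TWIST1, a basic helix-loop-helix factor of mesoderm and EMT, had 1 peak. This was a HIF1α iAs-only peak at chr7:19156209-19156401, 193 bp wide (percentile 6.06 of its list), 0.954 kb downstream in the 3′-UTR part of exon 1. A further 1804 genes had the same 4 counts. SNAI2, which encodes Slug, lay far from all lists: the nearest Nrf2 peak was 327 kb from the gene in either condition, and the nearest HIF1α peaks were 547 kb away in control cells and 537 kb away with iAs. A further 4900 genes had no peak in any list.

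**Figure D3:**
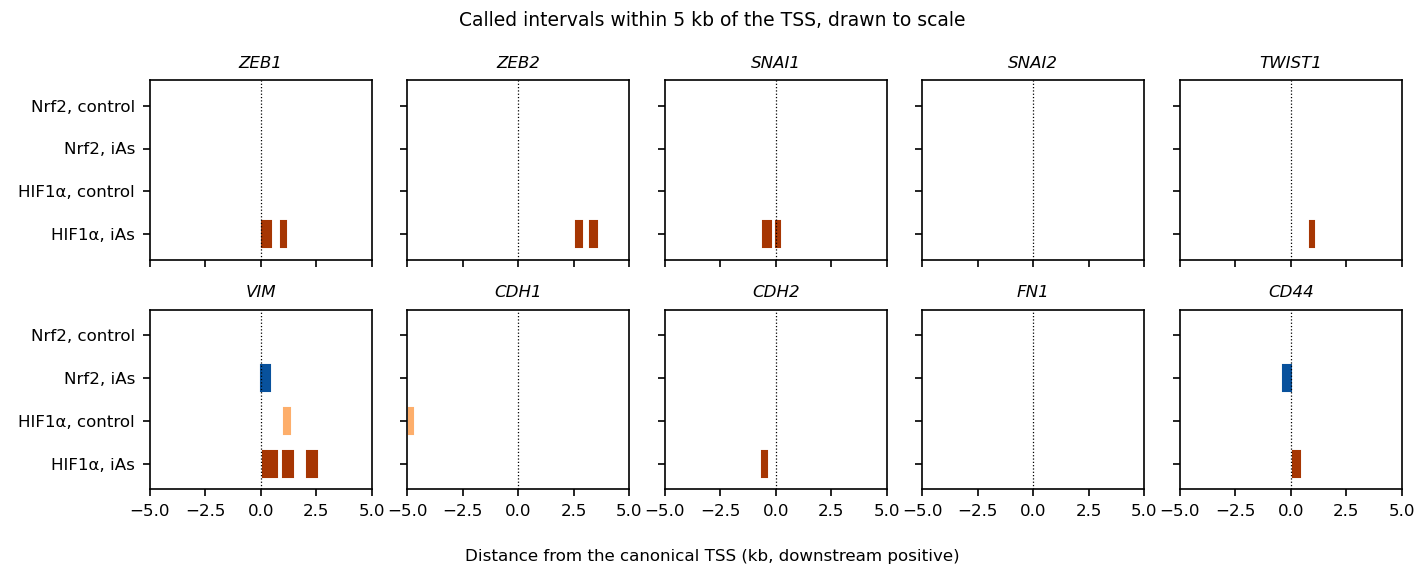
Called intervals within 5 kb of the canonical TSS of each gene, drawn to scale by distance from the TSS in kb, with 1 line per list. HIF1α with iAs has intervals at 7 genes, of 188 to 638 bp within 3 kb, while Nrf2 has them at VIM and CD44.

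CDH1, which encodes E-cadherin and is the gene that the factors above repress, had 1 peak in each of 3 lists at 3 different places. HIF1α in control cells had a 200-bp peak 4.82 kb upstream of the TSS, at chr16:68766274-68766473, and no HIF1α peak of iAs-treated cells overlapped it. With iAs the HIF1α peak was at chr16:68877356-68877767, 412 bp wide, past the 3′ end of CDH1 and at the TSS of TANGO6. The Nrf2 peak, iAs-only and 201 bp wide at chr16:68857455-68857655, lay in intron 13, 86.4 kb downstream of the CDH1 TSS. TANGO6 had the nearest canonical protein-coding TSS, while another annotated CDH1 start lay 407 bp from the peak centre. The Nrf2 core TGACTCAGC lay 3 bp from that centre. That short site is printed above.

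VIM, which encodes the intermediate filament vimentin, had peaks of both factors on its TSS with iAs. The Nrf2 peak, at chr10:17270275-17270668, was 394 bp wide, iAs-only and centred 0.231 kb downstream in the 5′-UTR part of exon 1. A HIF1α iAs-only peak of 638 bp, at chr10:17270353-17270990, overlapped it. The overlap held an AP-1-like heptamer and an ARE core 7 bp apart, in the printed site, and each of these letters also lay inside the HIF1α peak but beyond 100 bp from its centre. HIF1α had a second peak here in both conditions, over the coding part of exon 2, of 249 bp (control) and 414 bp (iAs). An iAs-only HIF1α peak of 431 bp lay in intron 2. The overlapping peaks at the TSS and the exon 2 peaks also overlapped the annotated span of VIM-AS1. The exon 2 peaks were centred 143 bp (control) and 179 bp (iAs) from another annotated VIM start. The other 3 HIF1α peaks of the locus, 1 in control cells and 2 with iAs, lay 26.5 to 26.9 kb upstream at the TSS of TRDMT1.

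CDH2, which encodes N-cadherin, had a Nrf2 peak in both conditions 27.1 kb upstream, 545 bp wide in control cells (chr18:25783961-25784505) and 664 bp with iAs (chr18:25783889-25784552). It held an ARE core near its centre and no AP-1-like heptamer. An iAs-only Nrf2 peak of 259 bp lay 61.8 kb downstream in intron 2 and held both a heptamer and an ARE core. HIF1α had 1 peak, iAs-only and 208 bp wide, 0.513 kb upstream of the canonical TSS at chr18:25757504-25757711. Its window held GCGTG 2 times, and its centre lay 303 bp downstream of another annotated CDH2 start.

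FN1, which encodes the matrix protein fibronectin, had no Nrf2 peak in its locus. The nearest was an iAs-only peak 92.7 kb upstream. HIF1α in control cells had a 385-bp peak 29.4 kb upstream, at chr2:216329954-216330338, which was not called with iAs. The other HIF1α peaks, of 245 bp (control) and 496 bp (iAs), overlapped each other at the TSS of ATIC, 124 kb downstream of the FN1 TSS. FN1 was thus the gene with a HIF1α peak in both conditions and no iAs-only peak of either factor.

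CD44 had 4 Nrf2 peaks with iAs and 0 in control cells. They lay 27.6 kb upstream (540 bp), at the TSS (341 bp, centred 0.171 kb upstream, chr11:35160377-35160717), 27.7 kb downstream in intron 1 (371 bp) and 73.6 kb downstream in intron 14 (221 bp). The peak at the TSS was centred 0.0490 kb from the start of CD44-DT, a long non-coding RNA gene on the opposite strand. It was also centred 118 bp downstream of another annotated CD44 start. HIF1α with iAs had an iAs-only peak of 332 bp beside it at chr11:35160826-35161157, 0.273 kb downstream, and the factors' intervals did not overlap. In intron 1, at +27.7 kb, 3 lists had a peak over the same letters: HIF1α in control cells (331 bp), HIF1α with iAs (272 bp) and Nrf2 with iAs (371 bp). The AP-1-like heptamer lay 7 to 22 bp from the 3 centres. Only 1 other gene had the same 4 counts as CD44.

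Merging the 4 lists gave 35 regions in the 10 loci. HIF1α with iAs alone accounted for 13 of them (37.1%, against 43.6% of 21088 regions in the genome), and Nrf2 with iAs alone for 10 (28.6% against 16.7%). Nrf2 in both conditions accounted for 5 (14.3% against 9.24%), HIF1α in both for 3 (8.57% against 11.5%) and HIF1α in control cells alone for 2 (5.71% against 7.62%). The remaining 2 were the VIM TSS, held by Nrf2 and HIF1α with iAs, and intron 1 of CD44, held by these and by HIF1α in control cells. Overlapping Nrf2 and HIF1α peaks with iAs were thus found at 2 of the 10 genes, against 12.7% of all genes. No region of the 10 genes was called in all 4 lists, as 1.59% of regions were. SNAI1 alone held 3 of the 5 regions with Nrf2 in both conditions, which are neighbours. It also held 4 of the 10 regions of Nrf2 with iAs alone, so these shares rest in large part on 1 locus.

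Within 100 bp of the peak centre the motif letters were then counted. The Nrf2 core was found in 2 of the 17 Nrf2 peaks with iAs, at SNAI1 and CDH1, and in 0 of the 5 in control cells. Over the whole Nrf2 lists 15.6% (95% interval 14.8 to 16.4) and 23.8% (22.4 to 25.3) of windows held it, against 0.245% and 0.187% of windows moved by 5 kb. The AP-1-like heptamer, which the Nrf2 core contains, was found in 7 of the 17 peaks with iAs (38.3% over the list, 3.85% when moved) and in 2 of the 5 in control cells (47.8%). The ARE core, which includes the Nrf2 core, was found in 8 of the 17 (31.6%, and 6.65% when moved) and in 1 of the 5 (42.4%).

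Of the 18 HIF1α peaks with iAs, 10 held ACGTG or GCGTG, against 52.4% (51.5 to 53.3) over the list and 25.3% when moved by 5 kb. In control cells 3 of the 6 did, against 47.7% (46.4 to 49.0). Neither peak found in control cells alone held it within 100 bp of the centre, while the FN1 peak held it farther out and the CDH1 peak did not. Over whole intervals it was in 4 of the 6 and in 12 of the 18. The AP-1-like heptamer was found in 1 of the 18 HIF1α peaks with iAs, that in intron 1 of CD44. Over that list 2.39% of windows held it, against 3.11% when moved. In control cells it was found in the overlapping peak, 1 of the 6. Over the control list 14.5% of windows held it, against 3.55% when moved. These letters are a description of the windows and do not show which protein was bound.

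GC content was high in nearly all HIF1α windows of iAs-treated cells. Of the 18 HIF1α windows with iAs, 17 had 61.7 to 74.6% GC, and that in intron 1 of CD44 had 51.2%. Those 17 peaks were also centred within 500 bp of an annotated start of some protein-coding transcript, as were 73.5% of the whole list. The peaks found in control cells alone had 52.7% GC at CDH1 and 39.8% at FN1, with 2 and 0 CpG in the window, against 14 to 28 CpG in those 17 windows. Nrf2 windows with iAs ranged from 35.3% GC in intron 14 of CD44 to 67.7% at SNAI1 and at the CD44 TSS. Their median was 50.7%, against 47.3% over the list, and that of the HIF1α windows with iAs was 70.4%, against 70.6%.

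**Figure D4:**
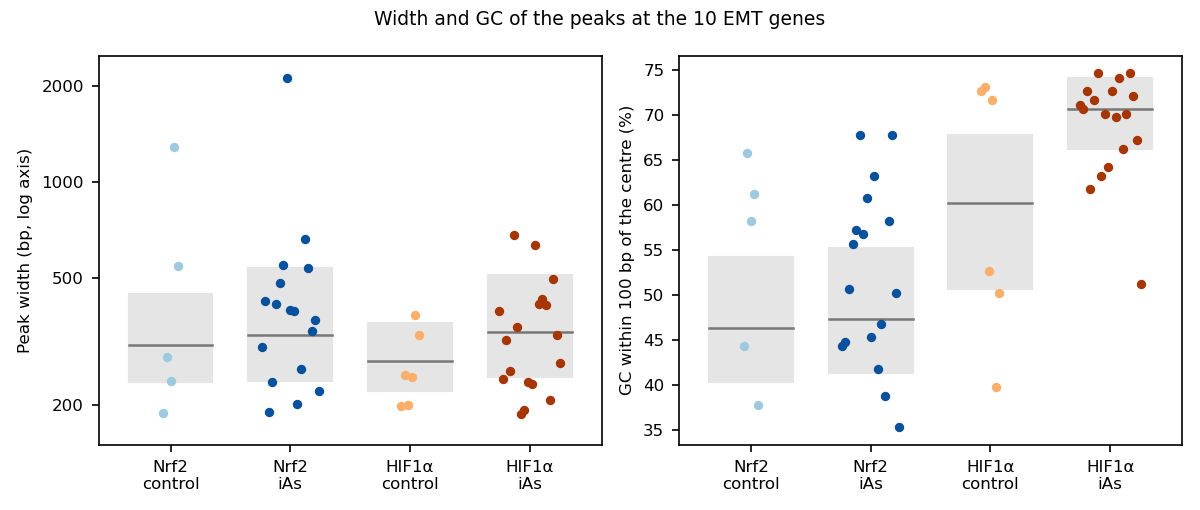
Width in bp on a log axis (left) and percent GC within 100 bp of the peak centre (right) of each of the 46 peaks by list, over the median (line) and the 25th to 75th percentile (grey box) of all peaks of that list. The SNAI1 peaks of 1294 and 2120 bp stand above the Nrf2 boxes, and the CD44 intron 1 peak stands below the HIF1α iAs box at 51.2% GC.

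Peak widths of the 10 genes were close to those of their lists. The median Nrf2 width was 283 bp (control) and 394 bp (iAs), against 309 and 333 bp over the lists, and the median HIF1α width was 247 and 326 bp, against 276 and 340 bp. Where a Nrf2 peak was called in both conditions, at ZEB2, SNAI1 and CDH2, it was wider with iAs at each of the 5 places, as were 92.2% of the 3032 Nrf2 peaks of control cells that overlapped an iAs peak. For HIF1α the peak with iAs was wider at VIM exon 2, at the TRDMT1 TSS and at the ATIC TSS, and narrower in intron 1 of CD44, 3 of 4 places, against 77.4% of 3226 over the list. Widths depend on depth and on the caller, whose part was not tested.

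Peaks were also counted at 50 other EMT genes, in the locus unless the canonical TSS is named. Peaks nearer to the TSS of a neighbouring gene were not set apart here. Of these, 11 had a Nrf2 peak in the locus in control cells and 24 with iAs (22% and 48%, against 20.0% and 35.0% of all genes), and 24 and 37 had a HIF1α peak (48% and 74%, against 45.5% and 68.6%). At the canonical TSS the counts were 0 and 4 for Nrf2 (0% and 8%, against 2.85% and 6.22%) and 8 and 27 for HIF1α (16% and 54%, against 17.7% and 44.3%). No peak in any list was found at 9 of the 50 (18%, against 24.3%). Of 8 further transcription factors, 4 had a HIF1α peak with iAs (SNAI3, TCF3, TWIST2 and FOXC2), 1 had a Nrf2 peak (TCF3) and 4 had none in any list, beside the 24.3% of all genes. Of the 18 genes of epithelial junctions and identity, all had a peak in at least 1 list (24.3% of all genes had none). In the locus of CLDN7, a claudin of tight junctions, HIF1α peaks numbered 2 in the control list and 10 in the iAs list. Of the 10, 8 were iAs-only. A further gene of the group went the other way, with a HIF1α peak of control cells alone. The keratin gene KRT8 had 4 Nrf2 peaks with iAs and 0 in control cells. Of the 8 TGF-beta signalling genes, 3 had a Nrf2 peak in control cells and 4 with iAs, and 4 and 6 had a HIF1α peak. SMAD3, which carries the signal into the nucleus, had 6 and 13 Nrf2 peaks and 11 and 5 HIF1α peaks in control and iAs-treated cells, and the ligand TGFB2 had 1 and 7 and then 5 and 2. HIF1α peaks were more numerous with iAs at the ligand TGFB1 (3 and 6) and at SMAD7, an inhibitor of the pathway (1 and 2). The whole HIF1α list was also longer with iAs (6008 and 12826). HIF1α peaks of control cells alone numbered 2 at TGFB1 and 1 at SMAD7. Of the 16 mesenchymal and matrix genes, 5 had a Nrf2 peak in control cells and 8 with iAs. HIF1α peaks were found at 9 and 11 of them, and 3 had no peak in any list (24.3% of all genes). Among them ITGB1, which encodes integrin beta 1, had 1 and 4 Nrf2 peaks and 1 and 2 HIF1α peaks. None of the HIF1α peaks at ITGB1 was shared between conditions, and HIF1α counts at other genes of the group rose or fell.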

How the data were processed

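Peaks of 4 ChIP-seq libraries of BEAS-2B cells, 1 each for Nrf2 and HIF1α in control and iAs-treated cells, were analysed. The submitters' processing notes name BWA, MACS2 2.1.0 and hg19, and per the study's methods the authors reduced the tags of a group to the lowest number in it and ran MACS or SICER. The deposited file also holds regions merged over the lists. Which caller made each list is not given in the sources used here. The labels and the methods name different antibody suppliers. The authors deposited base positions alone, with no heights, so the depth is unknown.

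Genes were the 20149 protein-coding genes of GENCODE release 44 on GRCh37, with canonical transcripts, and sequences came from the same build. Peaks were counted in the gene body and 50 kb on each side, and shared at an overlap of at least 1 bp. Motifs were searched within 100 bp of each peak centre and in windows moved by 5 kb. Python 3.11.15, SciPy 1.17.1 and pysam 0.24.0 were used, and the counting steps were tested on simulated data. With 1 library per condition, no test was run.

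The 10 genes, the 50 other EMT genes and the motifs were chosen with earlier results of these data known. All 10 genes were named; of the others, up to 4 in a group with the most iAs-only peaks could be named, as could a gene whose TSS was nearest to a peak. A gene that this rule allows is not reported here. Peaks were described in full at the TSS, where widest or where holding the Nrf2 core. Alternatives were loci of 10 and 100 kb, stricter and looser overlap, whole intervals for motifs, the wider 50% of each list and lists of equal number. No paired analysis was possible because no group has a replicate.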

Additional observations from a re-analysis of the deposited data

How the results depend on the processing

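No paired analysis was possible because each antibody and condition has 1 library. Of 112 alternative values for 44 results, 76 stayed within 1.5 times the value reported, 28 were lower and 8 were higher. The order of control below iAs-treated cells in peak and gene counts rests on lists of unequal length without heights, and their depth cannot be matched here.

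Values are in the order Nrf2 control, Nrf2 iAs, HIF1α control, HIF1α iAs, where a list moved. Shares over all genes with a peak in the locus were not counted for 10-kb flanks, the wider 50% or lists shortened to equal number. With 10-kb flanks the loci held 1, 9 and 3 peaks in the first 3 lists, and 1 gene had a Nrf2 peak in control cells. In the wider 50% of each list the loci held 2, 11, 2 and 8 peaks, 2 genes had a HIF1α peak in control cells and 5 with iAs, and 8 HIF1α peaks were iAs-only. With lists of equal number the loci held 9 Nrf2 and 7 HIF1α peaks with iAs (5 and 6 in control cells), 5 genes had a HIF1α peak with iAs and 4 in control cells, and 1, 5, 4 and 5 peaks were found in 1 condition alone. Counted within 3 kb of the canonical TSS in place of the locus, 0, 2 and 1 genes had a peak in the first 3 lists. HIF1α peaks of control cells alone numbered 1 with 10-kb and 4 with 100-kb flanks, and at 50% reciprocal overlap 1 Nrf2 peak of control cells was unshared. Over whole intervals the Nrf2 core was in 1 and the ARE core in 2 Nrf2 peaks of control cells, and the heptamer and the ARE core were each in 2 HIF1α peaks with iAs. Of the 50 other genes 7 had a Nrf2 peak in control cells with 10-kb flanks and 7 in the wider 50%, 14 had one with iAs in the wider 50%, and 11 had a HIF1α peak in control cells with 10-kb flanks.

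As alternatives chosen after seeing the data, the genes with a peak at the canonical TSS were recounted. In the wider 50% these were 0 for HIF1α in control cells and 3 with iAs (ZEB1, SNAI1 and VIM), and with lists of equal number 1 for Nrf2 with iAs (VIM) and 2 for HIF1α with iAs (ZEB1 and VIM). Both alternatives keep fewer peaks and choose them by width, and these were not separated. Of these counts only that of HIF1α with iAs in lists of equal number has a share over all genes beside it (27.1%). The share was not counted for the wider 50%, so the lower counts there cannot be set beside those of all genes.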
